A study of Mus musculus with 12 samples.

Results

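The collagen genes are the family that encodes the alpha chains of the triple-helical collagens. They were chosen by name: features of the count table whose Ensembl identifier maps in GENCODE M21 to a protein-coding symbol of the form Col, a number, a and a number. The rule found 44 of the 33219 features. The rule uses names alone, but the family was taken up with earlier results of these data known. All 44 collagen symbols of this form in GENCODE M21 were in the table.

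The study asked how RAC1 A159V, a substitution in a small GTPase that was introduced by CRISPR knock-in, changes tumors of the mouse colon cancer line MC38 and their answer to an antibody against PD1. Cells were implanted under the skin of C57BL/6 mice, tumors were collected on day 13, and tumor cells were enriched from the digested tumors with a magnetic Tumor Cell Isolation Kit. Poly-A RNA was sequenced in bulk from 12 samples, 3 mice in each of 4 groups, and the authors deposited raw counts per gene. Dosing with either anti-PD1 or the isotype control (IgG) began on day 3 and was repeated every 3 days.

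WT IgG and WT anti-PD1 tumors grew from MC38 cells with wild-type RAC1, and A159V IgG and A159V anti-PD1 tumors from MC38 cells homozygous for A159V. Whether the WT cells were the parental line or a clone is not stated. The mice of all 4 groups were C57BL/6 with an intact immune system, aged 6 to 8 weeks, and all tumors were collected on the same day after implantation. The cells were implanted in Matrigel, a basement membrane extract that itself contains collagen protein, and the tumors were digested with collagenase in every group. The labels do not name the A159V clone, and edited cells are from 1 clone unless stated otherwise, so an effect of the substitution and of the clone cannot be told apart. Samples are named by group and by the replicate number in their label, 1, 2 and 4 in WT IgG, 1, 2 and 5 in A159V IgG, and 1, 2 and 3 in both anti-PD1 groups. Values of a gene are listed in that order.

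The total count was 19655947, 15770884 and 19032609 in WT IgG, 18888677, 14053582 and 16839346 in WT anti-PD1, 20199005, 21949942 and 18470322 in A159V IgG, and 19061351, 18700827 and 18593377 in A159V anti-PD1. Levels are given as TMM-scaled CPM, which are counts relative to library size. A floor of 3 counts per sample corresponded to between 0.137 and 0.214 CPM, and speaks of counting error alone, as molecular identifiers were not used.

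The labels give the cells as adenocarcinoma. The 6 epithelial markers that were looked up (Epcam, Cdh1, Krt8, Krt18, Krt19, Krt20) summed to between 0.703 and 4.22 CPM per sample, and Epcam was at 0 in 9 of 12 samples and under the floor in the other 3. The epithelial identity in the label therefore has little trace in these libraries. The 8 fibroblast markers (Pdgfra, Pdgfrb, Thy1, Dcn, Lum, Dpt, Pi16, Cd34) were above the floor in all samples, except Thy1 in A159V IgG 1, A159V anti-PD1 1 and A159V anti-PD1 2, and summed to 530 to 942 CPM in the 6 WT samples and to 247 to 372 CPM in the 6 A159V samples. Their most abundant gene was Cd34 in 10 samples and Dcn in WT IgG 4 and WT anti-PD1 3.

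In log2 CPM of all genes tested, WT IgG 1 had a mean correlation of 0.969 with the other samples of its group and A159V IgG 5 one of 0.972, and the other 10 samples lay between 0.974 and 0.990. Both were the lowest values, though WT IgG 4, at 0.974, was close to A159V IgG 5. Where leaving out WT IgG 1 or A159V IgG 5 takes away a call given here, this is stated. For collagen genes it is also stated where this adds a call in a genotype comparison. Calls added by leaving out WT IgG 4 were not followed by gene. Skeletal muscle markers (Acta1, Myh4, Ckm, Tnnt3) summed to 63.4 CPM in WT anti-PD1 2 and 104 CPM in WT anti-PD1 3, and to between 1.12 and 15.2 CPM elsewhere.

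Collagen chains join as trimers inside the cell, are hydroxylated and glycosylated on the way, and are trimmed and cross-linked outside it. Fibril-forming collagens (types I, II, III, V, XI, XXIV, XXVII) make the fibers of connective tissue, with type V and XI chains at the fibril core, while type IV forms the sheet of basement membranes and type VI forms beaded filaments that link cells to fibers. In tumors, fibroblasts make much of the type I and III collagen, tumor cells can make collagens of their own, and a dense collagen matrix is known for stiffening the tissue and for slowing the entry of immune cells.

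By structure the 44 genes fall into 8 classes: 11 fibril-forming, 6 of type IV, 6 of type VI, 9 fibril-associated, 3 short-chain network, 4 transmembrane, 2 multiplexins, and 3 in a class of anchoring-fibril and other collagens. A filter on low counts by group (filterByExpr in edgeR, which asks for about 0.532 CPM in 3 samples) kept 30 of them for testing. In the order above, 10, 4, 4, 7, 1, 1, 2 and 1 genes were kept. Of the 30, 28 passed the limit in enough samples of both genotypes, while Col9a2 and Col22a1 passed through WT samples alone, so their differences are partly fixed by the filter.

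The 14 genes not kept had 485 counts in all, 0.0531% of the collagen counts. These were Col4a3 with 39 counts, Col4a4 with 43, Col6a5 with 29, Col6a6 with 14, Col8a2 with 42, Col9a1 with 76, Col10a1 with 17, Col13a1 with 10, Col19a1 with 5, Col23a1 with 45, Col24a1 with 66, Col25a1 with 2, Col26a1 with 58 and Col28a1 with 39 counts over all 12 samples. With the filter they were not tested on the 12 samples. With no filter on low counts 1 of the 14 was called in a genotype comparison, Col9a1, lower under anti-PD1 at -1.92 (adjusted p 0.0429), with 12, 10 and 7 counts in WT anti-PD1 and 2, 4 and 2 in A159V anti-PD1. When 1 sample was left out, Col9a1 passed the filter in 10 of 12 cases, through WT anti-PD1 samples alone, so its difference is then partly fixed by the filter. It was called lower in 8 of these, among them without WT IgG 1, at -1.96 (adjusted p 0.0115), and without A159V IgG 5, at -1.93 (adjusted p 0.0169), and not without A159V anti-PD1 1 (adjusted p 0.0728) or A159V anti-PD1 3 (0.0826). The basement membrane chains Col4a3 and Col4a4 are barely detected beside Col4a1, Col4a2, Col4a5 and Col4a6.

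Collagen genes together took a mean of 0.461 ± 0.190% (SD, n = 3) of all counts (WT IgG), 0.638 ± 0.210% (WT anti-PD1), 0.303 ± 0.0446% (A159V with IgG) and 0.285 ± 0.0134% (A159V with anti-PD1). WT IgG 4 and WT anti-PD1 3 had the highest shares, and the 3 WT anti-PD1 samples lay above all 6 A159V samples. WT IgG 1 fell within the range of the A159V IgG samples, so the 2 IgG groups overlapped.

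The classes made up different parts of that share. In the same order of groups, type VI collagen held 49.7 ± 10.5, 54.4 ± 4.45, 27.1 ± 4.69 and 22.3 ± 3.70% (SD, n = 3) of the collagen counts. Fibril-forming collagens held 27.7 ± 10.2%, 23.5 ± 1.72%, 45.4 ± 4.96% and 51.7 ± 5.32%. Taken over all counts, fibril-forming collagens had means of 0.119, 0.149, 0.136 and 0.147%, and type VI of 0.241, 0.3525, 0.083 and 0.064%. Col5a3 alone went from 5.08 ± 0.844% and 3.98 ± 0.881% of collagen counts in the WT groups to 29.0 ± 3.71% and 34.2 ± 3.91% in the A159V groups. Type IV collagen held 7.15 ± 2.77%, 10 ± 1.74%, 14 ± 0.639% and 11.2 ± 0.899%. Type VI was therefore the class with the largest mean share in both WT groups and the fibril-forming class in both A159V groups, where Col5a3 made up most of it.

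**Figure D1:**
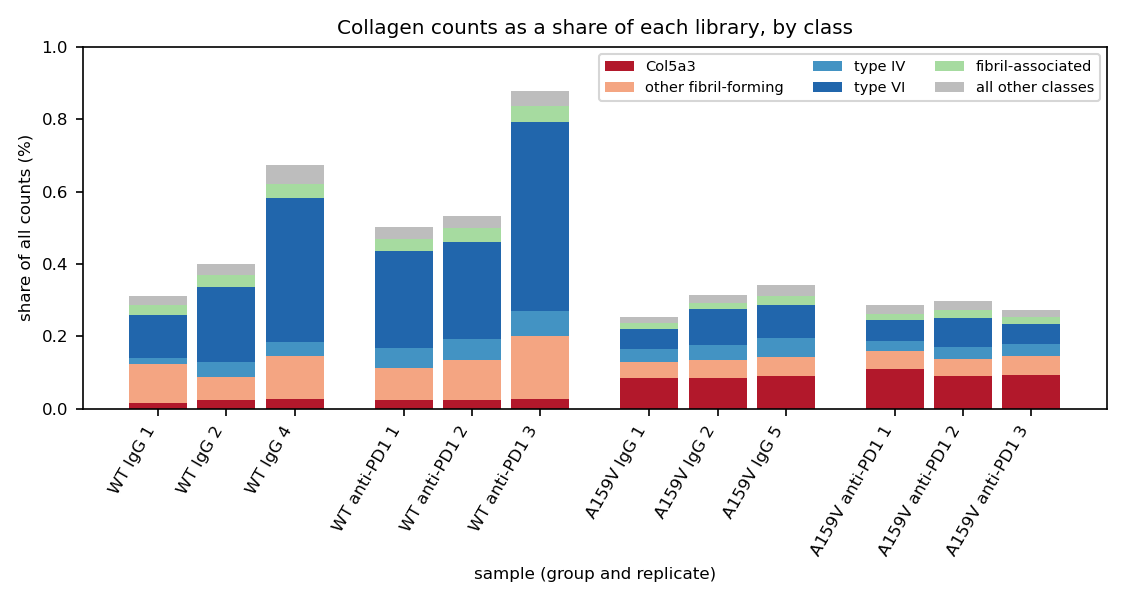
Share of all counts (percent, y axis) taken by collagen genes in each of the 12 samples (x axis), stacked by class with Col5a3 shown apart from the other fibril-forming genes. Type VI is the widest band in WT samples, and Col5a3 is a wider band in all A159V samples than in any WT sample.

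Levels of different genes were compared per kilobase of exon. The length is that of all annotated exons of a gene merged, such as 4380 bases for Col6a1, 8326 for Col6a2 and 12426 for Col1a2. Which transcripts were present was not tested, so orders and ratios between genes depend on this length. It cancels where the same ratio is compared between groups. In WT IgG the order of CPM per kilobase began with Col6a1 at 236 ± 109 (SD, n = 3), followed by Col6a2 at 84.3 ± 41.8, Col6a3 at 51.7 ± 39.6, Col16a1 at 46.9 ± 5.99, Col5a1 at 40.2 ± 21, Col3a1 at 36.4 ± 10.9 and Col5a3 at 32.6 ± 6.16. Past Col6a1, each of these genes differed from the next by less than the larger SD of the pair. WT anti-PD1 began with Col6a1 at 346 ± 134 CPM per kilobase, Col6a2 at 118 ± 56.0, Col6a3 at 70.5 ± 22.8 and Col3a1 at 57.4 ± 30.1, and Col5a3 was at 33.7 ± 2.09.

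In A159V IgG the order of CPM per kilobase began with Col5a3 at 132 ± 0.993, ahead of Col6a1 at 82.0 ± 20.8, Col5a1 at 46.7 ± 1.79 and Col4a1 at 35.0 ± 4.77. In A159V anti-PD1 Col5a3 was at 147 ± 17.5 CPM per kilobase, Col6a1 at 59.4 ± 15.4, Col5a1 at 40.8 ± 2.31 and Col16a1 at 25.9 ± 2.70. Col5a3 lay above Col6a1 by more than the spread of either gene in both A159V groups. The classic fiber genes Col1a1 and Col3a1 were absent from the first 10 of both A159V groups, while Col3a1 was in the first 10 of both WT groups.

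The comparison of A159V IgG with WT IgG asks how collagen mRNA differs between the genotypes without treatment. Genes were called where the adjusted p was below 0.05 and the log2 fold change exceeded 0.3 in size, from a quasi-likelihood fit of all 4 groups in edgeR with Benjamini-Hochberg adjustment over 14340 genes. Of the 30 collagen genes tested, 3 were higher and 13 lower in A159V, and the 3 and 3 samples did not overlap for 15 of the 30. Among all genes tested 28.0% were called, 15.6% higher and 12.4% lower, and 35.8% did not overlap. Collagen genes were thus called lower more often than genes in general, with a median log2 fold change of -0.85 against 0.02 for all genes tested.

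The comparison of A159V anti-PD1 with WT anti-PD1 asks the same under treatment. There 1 collagen gene was higher and 12 were lower, with Col22a1, whose difference is partly fixed by the filter, among the latter, and 18 of 30 did not overlap. Among all genes tested 21.4% were called, 11.2% higher and 10.2% lower, and 56.1% did not overlap, so the 18 are near the background share. The median log2 fold change was -0.98 over the 30 collagen genes and 0.06 over all genes tested. In bulk RNA, fewer cells of a type and less RNA per cell cannot be told apart, in this or any comparison given here.

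The scaling of libraries moves these counts for genes in general more than for collagens. Under IgG the split of all called genes into higher and lower was 2231 and 1779, and it was 1680 and 2052 with RLE size factors and 1337 and 2313 with upper-quartile normalization. Under anti-PD1 it was 1613 and 1462, and it was 1123 and 1672 with RLE size factors and 931 and 1788 with upper-quartile normalization. Upper-quartile normalization moved the median of all genes by -0.14 log2 under IgG, and relative to that median the collagen median was -0.86 with it and -0.87 with TMM. No collagen gene changed sign in either genotype comparison with RLE size factors or upper-quartile normalization.

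Leaving out A159V IgG 1 or A159V IgG 2 lowered the calls over all genes under IgG from 4010 to 2669 or 2578, and the collagen calls from 16 to 12 in either case. Under anti-PD1 the calls over all genes went from 3075 to 1983 without WT anti-PD1 2, 1519 without WT anti-PD1 3 and 1672 without A159V anti-PD1 3. The collagen calls then were 10, 10 and 9 against 13. Without WT IgG 1 the collagen calls under IgG were 16, and without A159V IgG 5 they were 15.

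**Figure D2:**
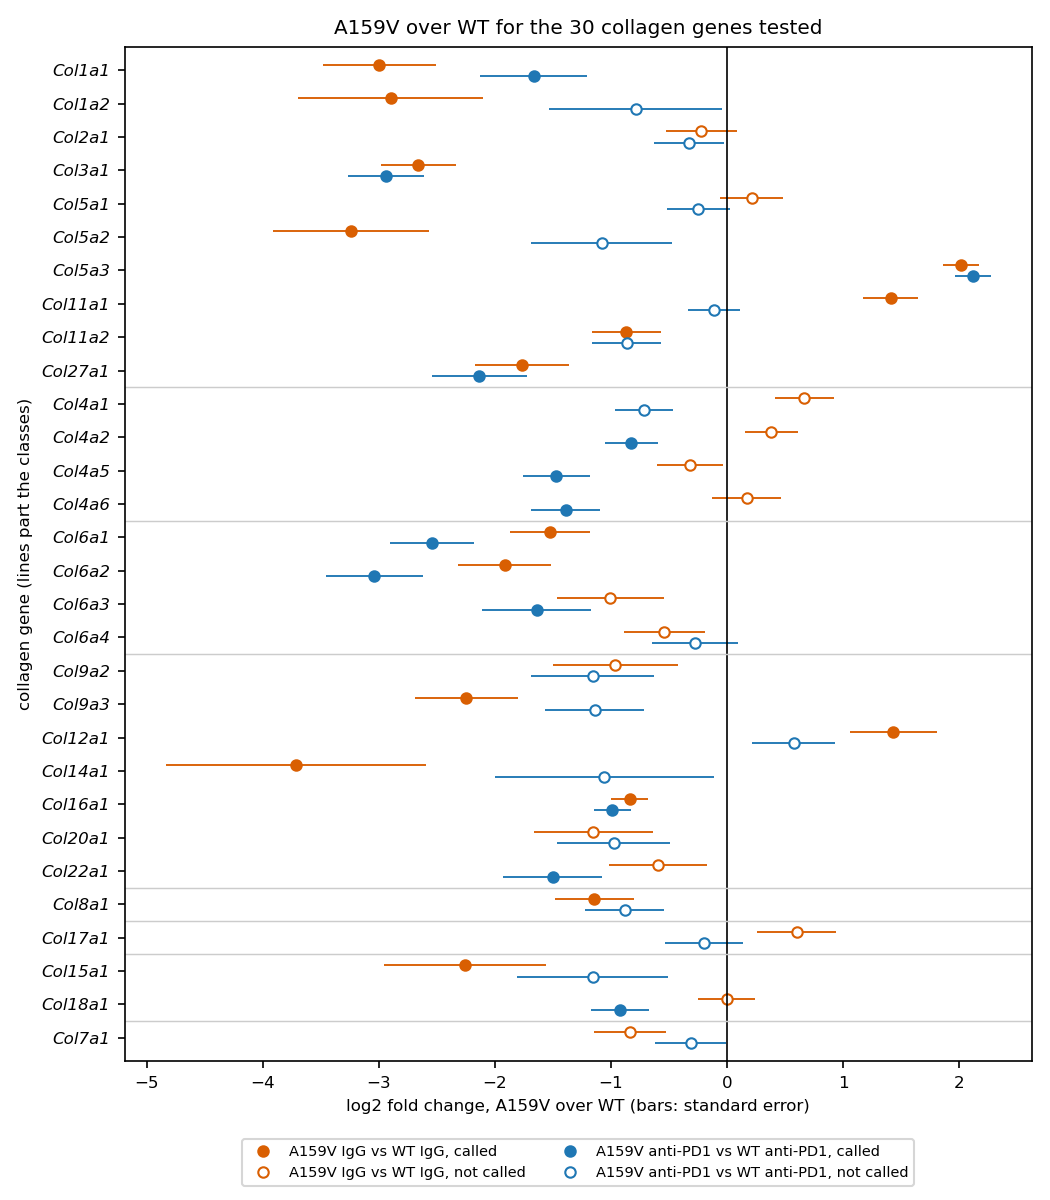
Log2 fold change of A159V over WT (x axis, bars show the standard error of the edgeR fit) for the 30 collagen genes tested (y axis, grouped by class), under IgG in orange and under anti-PD1 in blue, filled where called. Col5a3 lies near 2.0 in both comparisons, while most other points lie below 0.

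Col5a3 encodes the alpha 3 chain of type V collagen, a chain with a narrower tissue range than the other type V chains. The gene (ENSMUSG00000004098) lies at chr9:20770050-20815067 in mm10 on the minus strand. Its mRNA was at 182, 219 and 265 CPM in WT IgG, 227, 217 and 245 CPM in WT anti-PD1, 903, 889 and 897 CPM in A159V IgG and 1130, 898 and 964 CPM in A159V anti-PD1. All 6 A159V samples lay above all 6 WT samples, and within each genotype the treatment groups overlapped. The log2 fold change of A159V over WT was 2.01 (SE 0.16, adjusted p 1.83e-05) in edgeR under IgG. Under anti-PD1 it was 2.12 (SE 0.16, adjusted p 9.79e-06). Without WT IgG 1 the value under IgG was 1.83. The interaction, which is the difference between these 2 fold changes, was 0.10 (SE 0.21, adjusted p 0.804).

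The other type V chains behaved differently. Col5a1, the chain common to most type V trimers, was at 218, 261 and 546 CPM in WT IgG, 383, 342 and 510 CPM in WT anti-PD1, 380, 409 and 400 CPM in A159V IgG and 367, 328 and 345 CPM in A159V anti-PD1. Those samples overlapped in both genotype comparisons, and the log2 fold changes of 0.21 and -0.25 were within their standard errors of 0.27 from 0. Col5a2, the partner of Col5a1 in the common trimer, was at 20.7, 2.94 and 7.63 CPM in WT IgG, 4.92, 9.59 and 5.74 CPM in WT anti-PD1, 0.793, 1.83 and 0.638 CPM in A159V IgG and 3.81, 1.38 and 4.34 CPM in A159V anti-PD1. Its 6 A159V values lay below those of the WT samples of the same treatment, with WT IgG 1 as the highest sample. Col5a2 had a log2 fold change of -3.24 (SE 0.67, adjusted p 0.00428) under IgG in edgeR, and -1.08 (SE 0.61, adjusted p 0.224) under anti-PD1, which did not pass. Without WT IgG 1 the value under IgG was -2.34 (adjusted p 0.0123), and over all alternatives its adjusted p ranged from 1.05e-06 to 0.0217. The interaction of Col5a2 was 2.16 (adjusted p 0.256), so a difference between the treatments is not shown.

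Per kilobase, the level of Col5a3 relative to Col5a1 was 0.897 ± 0.252 (WT IgG, SD, n = 3), 0.711 ± 0.0996 (WT anti-PD1), 2.82 ± 0.130 (A159V with IgG) and 3.58 ± 0.227 (A159V with anti-PD1). Every A159V sample exceeded every WT sample in this ratio. Col5a2 relative to Col5a1 stayed at or below 0.0838 in all 12 samples. WT IgG 1 and WT IgG 2 had Col5a3 slightly above Col5a1, at ratios of 1.04 and 1.05, and the other 4 WT samples had it below.

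Type III collagen is a trimer of a single chain, encoded by Col3a1 (ENSMUSG00000026043, chr1:45311538-45349706 in mm10, plus strand), and accompanies type I in soft connective tissue. Col3a1 was at 474, 264 and 335 CPM in WT IgG, 351, 437 and 901 CPM in WT anti-PD1, 59.2, 51.1 and 59.5 CPM in A159V IgG and 59.1, 72.1 and 89.3 CPM in A159V anti-PD1. WT anti-PD1 3 was the highest sample, and the lowest WT sample was still above the highest A159V sample. The log2 fold change in edgeR was -2.66 (SE 0.33, adjusted p 0.000214) under IgG. It was -2.94 (SE 0.33, adjusted p 0.000111) under anti-PD1. With WT IgG 1 left out, the IgG value was -2.46.

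Type I collagen, the main fiber of most tissues, is made of the products of Col1a1 and Col1a2. Col1a1 (ENSMUSG00000001506, chr11:94936224-94953042 in mm10, plus strand) was at 227, 58.8 and 140 CPM in WT IgG, 66.9, 142 and 136 CPM in WT anti-PD1, 11.8, 22.3 and 19.1 CPM in A159V IgG and 39.4, 19.6 and 49.8 CPM in A159V anti-PD1. Every A159V sample lay below the WT samples of its treatment, and A159V anti-PD1 2 resembled the A159V IgG samples. Its log2 fold change in edgeR was -3.0 (SE 0.48, adjusted p 0.00105) under IgG. Under anti-PD1 it was -1.67 (SE 0.46, adjusted p 0.0216). That second call was lost without A159V anti-PD1 1 (0.0563), without A159V anti-PD1 2 (0.0809), without WT anti-PD1 2 (0.0724) and without WT anti-PD1 3 (0.0809), where brackets hold the adjusted p, which ranged from 0.00147 to 0.0809 over all alternatives. The IgG value without WT IgG 1 was -2.54.

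Col1a2 was at 178, 13.2 and 54.6 CPM in WT IgG, 21.1, 96.5 and 22.6 CPM in WT anti-PD1, 8.83, 14.3 and 9.83 CPM in A159V IgG and 30.6, 14.8 and 35.7 CPM in A159V anti-PD1. WT IgG 1 and WT anti-PD1 2 were the 2 highest samples, WT IgG 2 lay within the A159V IgG range, and both genotype comparisons overlapped. The log2 fold change in edgeR was -2.90 (SE 0.80, adjusted p 0.0178) under IgG. The anti-PD1 value was -0.79 (SE 0.75, adjusted p 0.485), which did not pass. The call under IgG was lost with the replicate number as a block (0.0585), with voom (0.0692), without A159V IgG 1 (0.0642) and without WT IgG 1 (0.0886), with adjusted p from 0.000923 to 0.0886 over all alternatives, and the value without WT IgG 1 was -1.69. Its interaction was 2.11 (adjusted p 0.305).

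Col11a1 encodes a type XI chain, which can replace type V chains at the fibril core. It was at 4.59, 7.16 and 7.58 CPM in WT IgG, 14.1, 12.7 and 19.2 CPM in WT anti-PD1, 15.3, 20.8 and 15.3 CPM in A159V IgG and 15.5, 11.4 and 15.6 CPM in A159V anti-PD1. The 3 WT IgG samples were the lowest of all 12, and the other 3 groups overlapped with one another. Under IgG the log2 fold change in edgeR was 1.41 (SE 0.23, adjusted p 0.00121). In treated tumors it was -0.11 (SE 0.23, adjusted p 0.760), and the interaction was -1.52 (adjusted p 0.135), so a difference between the treatments did not pass the test. Leaving out WT IgG 1 gave an IgG value of 1.15.

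Col27a1, a fibril-forming collagen of cartilage and other tissues, was at 11.4, 17.4 and 30.2 CPM in WT IgG, 17.4, 13.6 and 36.6 CPM in WT anti-PD1, 4.55, 5.48 and 7.28 CPM in A159V IgG and 3.81, 6.64 and 4.95 CPM in A159V anti-PD1. WT IgG 4 and WT anti-PD1 3 were the highest samples, and all 6 A159V samples lay below all 6 WT samples. In edgeR the log2 fold change was -1.77 (SE 0.41, adjusted p 0.00723) under IgG. It was -2.13 (SE 0.41, adjusted p 0.00321) under anti-PD1. Col11a2, another type XI chain, was between 2.64 and 4.63 CPM in WT samples and between 1.22 and 2.62 CPM in A159V samples. Its log2 fold change of -0.87 (SE 0.30, adjusted p 0.0447) in edgeR was called under IgG, and that of -0.86 (SE 0.30, adjusted p 0.0548) under anti-PD1 was not, though it passed without WT IgG 1, at -0.94 (adjusted p 0.0343), and without A159V IgG 5, at -0.90 (adjusted p 0.0444). The former call was lost with only the samples compared (0.0664), with the replicate number as a block (0.0752), without A159V IgG 1 (0.0956), without A159V IgG 2 (0.135), without A159V anti-PD1 2 (0.0592), without WT IgG 2 (0.0989), without WT IgG 4 (0.0660) and without WT anti-PD1 3 (0.0606), with adjusted p from 0.0144 to 0.135 over all alternatives. Col2a1, the fiber collagen of cartilage, stayed between 0.793 and 1.39 CPM, with log2 fold changes of -0.22 and -0.32 that did not pass.

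Of the filament chains of type VI collagen, Col6a1, Col6a2 and Col6a3, the first 2 had the highest levels per kilobase of all collagen genes in each WT sample, and Col6a3 came lower in WT IgG 1 and WT IgG 2. Col6a1 was at 609, 942 and 1547 CPM in WT IgG, 1200, 1156 and 2196 CPM in WT anti-PD1, 274, 455 and 348 CPM in A159V IgG and 188, 322 and 271 CPM in A159V anti-PD1. WT IgG 4 and WT anti-PD1 3 stood highest, and the WT samples lay above the A159V samples throughout. A159V over WT gave, in log2 by edgeR, -1.52 (SE 0.35, adjusted p 0.00708) under IgG. It was -2.54 (SE 0.36, adjusted p 0.000474) under anti-PD1. The interaction of Col6a1 was -1.02 (adjusted p 0.290) and did not pass.

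Col6a2 was at 413, 604 and 1088 CPM in WT IgG, 736, 692 and 1521 CPM in WT anti-PD1, 145, 225 and 188 CPM in A159V IgG and 74.6, 170 and 115 CPM in A159V anti-PD1. Its order of samples was like that of Col6a1, with no overlap between genotypes. Under IgG the log2 fold change in edgeR was -1.92 (SE 0.40, adjusted p 0.00448). The anti-PD1 value was -3.04 (SE 0.42, adjusted p 0.000409), a larger difference than that of any other collagen gene in this comparison. Per kilobase Col6a2 stood at 0.355 ± 0.0167 of Col6a1 (WT IgG, SD, n = 3), 0.334 ± 0.0265 (WT anti-PD1), 0.274 ± 0.0124 (A159V with IgG) and 0.236 ± 0.0363 (A159V with anti-PD1), lower in every A159V sample than in any WT sample. With WT IgG 1 left out, the values under IgG were -1.86 for Col6a1 and -2.25 for Col6a2.

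Col6a3 was at 253, 448 and 1153 CPM in WT IgG, 702, 670 and 1157 CPM in WT anti-PD1, 184, 362 and 379 CPM in A159V IgG and 331, 297 and 184 CPM in A159V anti-PD1. WT IgG 1 lay within the A159V IgG range, and the anti-PD1 groups did not overlap. Its log2 fold change in edgeR was -1.01 (SE 0.46, adjusted p 0.120) under IgG, not called. In treated tumors it was -1.64 (SE 0.47, adjusted p 0.0250), and this call was lost without A159V anti-PD1 2 (0.0626), without A159V anti-PD1 3 (0.110) and without WT anti-PD1 3 (0.112), with adjusted p from 0.000402 to 0.112 over all alternatives. With WT IgG 1 left out, the IgG value was -1.44 (adjusted p 0.0262), past the threshold. Col6a4, a minor alternative chain, stayed between 0.763 and 2.73 CPM, with log2 fold changes of -0.54 and -0.28, neither called.

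Type IV collagen forms the basement membrane network. Col4a1 was at 88.4, 219 and 186 CPM in WT IgG, 293, 289 and 351 CPM in WT anti-PD1, 224, 264 and 295 CPM in A159V IgG and 171, 207 and 189 CPM in A159V anti-PD1. Under IgG the A159V samples were above the WT samples, with WT IgG 1 far below the others, and under anti-PD1 they were below. In edgeR the log2 fold change was 0.67 (SE 0.25, adjusted p 0.0652) under IgG. It was -0.72 (SE 0.25, adjusted p 0.0591) under anti-PD1. Neither was called. Without WT IgG 1 the IgG value was 0.31 (adjusted p 0.177), and the anti-PD1 value of -0.79 (adjusted p 0.00191) passed, as did that of -0.75 (adjusted p 0.0434) without A159V IgG 5.

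Col4a2, whose product joins that of Col4a1 in the same trimer, was at 59.2, 132 and 113 CPM in WT IgG, 162, 176 and 191 CPM in WT anti-PD1, 110, 133 and 153 CPM in A159V IgG and 95.3, 101 and 103 CPM in A159V anti-PD1. The IgG groups overlapped, and the anti-PD1 groups did not. Under IgG the log2 fold change in edgeR was 0.38 (SE 0.23, adjusted p 0.228). The anti-PD1 value was -0.82 (SE 0.23, adjusted p 0.0222), a call lost without A159V anti-PD1 1 (0.0724), without A159V anti-PD1 2 (0.0623), without A159V anti-PD1 3 (0.0688), without WT anti-PD1 2 (0.0584) and without WT anti-PD1 3 (0.0875), with adjusted p from 3.80e-05 to 0.0875 over all alternatives. Per kilobase Col4a2 stood at 0.707 ± 0.0428 of Col4a1 (WT IgG), 0.641 ± 0.0399 (WT anti-PD1), 0.569 ± 0.0145 (A159V with IgG) and 0.596 ± 0.0419 (A159V with anti-PD1) (SD, n = 3).

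Col4a5 and Col4a6 encode chains of a second type IV trimer, found in basement membranes of smooth muscle and some epithelia. Col4a5 was at 22, 37.8 and 66.4 CPM in WT IgG, 72.2, 65.9 and 90.3 CPM in WT anti-PD1, 29.7, 36.6 and 35.1 CPM in A159V IgG and 25.6, 28.7 and 28.2 CPM in A159V anti-PD1. Under anti-PD1 the genotypes did not overlap and Col4a5 had a log2 fold change of -1.47 (SE 0.29, adjusted p 0.00383) in edgeR. Under IgG they overlapped, with a log2 fold change of -0.32 (SE 0.29, adjusted p 0.428), and without WT IgG 1 it was called lower, at -0.69 (adjusted p 0.0352). Col4a6 was at 4.86, 8.81 and 12.8 CPM in WT IgG, 19.3, 16.4 and 29.1 CPM in WT anti-PD1, 8.83, 11.2 and 9.67 CPM in A159V IgG and 7.41, 7.65 and 9.62 CPM in A159V anti-PD1. The 3 WT anti-PD1 samples were the highest of all 12 for both genes, except that WT IgG 4 exceeded WT anti-PD1 2 for Col4a5. The log2 fold change of Col4a6 in edgeR was -1.39 (SE 0.30, adjusted p 0.00587) under anti-PD1. It was 0.17 (SE 0.30, adjusted p 0.702) under IgG, not called, and turned to -0.19 (adjusted p 0.627) without WT IgG 1.

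**Figure D3:**
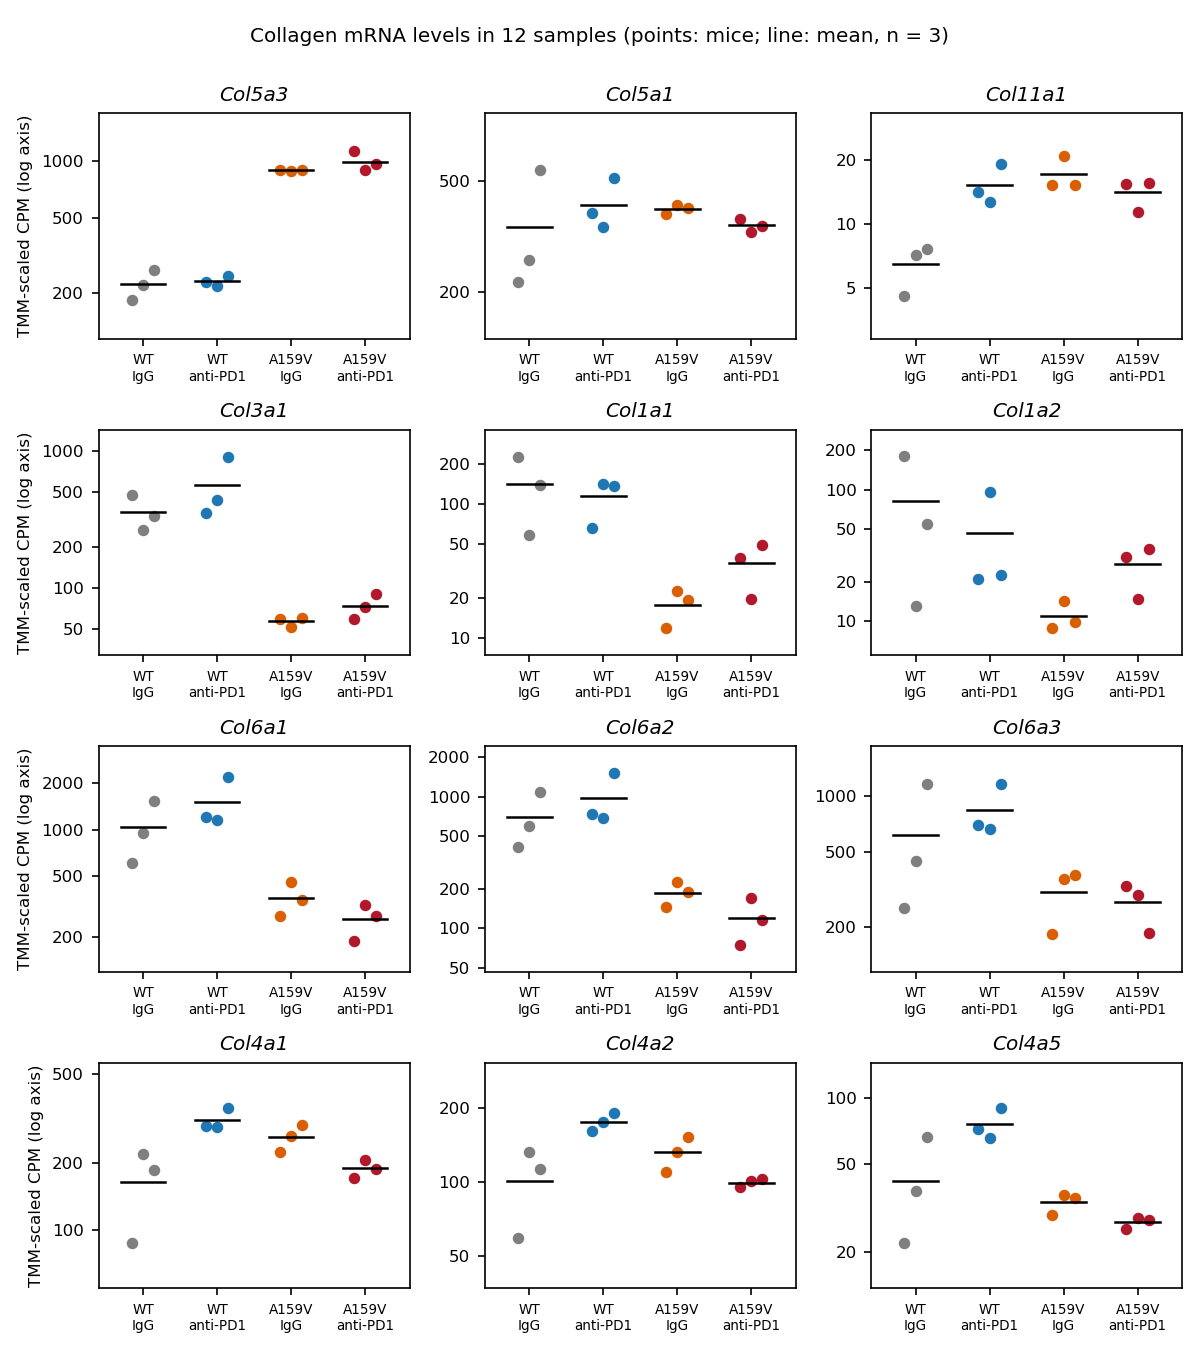
TMM-scaled CPM (y axis, logarithmic) of 12 collagen genes in the 4 groups (x axis), with 1 point per mouse and a line at the mean of n = 3. Col5a3 is higher in all A159V samples, Col3a1, Col6a1 and Col6a2 are lower in all of them, and Col4a1, Col4a2 and Col4a5 have their highest mean in WT anti-PD1.

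Fibril-associated collagens sit on the surface of fibers rather than forming them. Col16a1 was at 279, 312 and 359 CPM in WT IgG, 305, 334 and 400 CPM in WT anti-PD1, 155, 166 and 210 CPM in A159V IgG and 154, 189 and 181 CPM in A159V anti-PD1. All 6 WT samples lay above all 6 A159V samples. The edgeR log2 fold change was -0.84 (SE 0.16, adjusted p 0.00271) under IgG. It was -0.99 (SE 0.16, adjusted p 0.00116) under anti-PD1.

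Col12a1, found on type I fibers of dense tissue, was at 7.05, 2.20 and 7.13 CPM in WT IgG, 10.4, 17.6 and 10.7 CPM in WT anti-PD1, 16.8, 9.85 and 17.9 CPM in A159V IgG and 18.9, 23 and 15.5 CPM in A159V anti-PD1. WT IgG 2 was the lowest sample, the 3 WT IgG samples lay below the A159V IgG samples, and the anti-PD1 groups overlapped. Under IgG the log2 fold change in edgeR was 1.43 (SE 0.37, adjusted p 0.0143), a call lost with only the samples compared (0.0769), with adjusted p from 0.00269 to 0.0769 over all alternatives. In treated tumors it was 0.57 (SE 0.36, adjusted p 0.274), and the interaction was -0.86 (adjusted p 0.370). The IgG value without WT IgG 1 was 1.59.

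Col14a1, another collagen bound to type I fibers, was at 12.8, 0.612 and 2.86 CPM in WT IgG, 1.24, 11.1 and 1.62 CPM in WT anti-PD1, 0.264, 0.576 and 0.372 CPM in A159V IgG and 2.83, 0.744 and 3.00 CPM in A159V anti-PD1. WT IgG 1 and WT anti-PD1 2 were far above the rest. Under IgG the log2 fold change in edgeR was -3.71 (SE 1.12, adjusted p 0.0271), and this call was lost with the replicate number as a block (0.0669), with voom (0.139), without A159V IgG 1 (0.0865), without A159V IgG 2 (0.0667), without A159V IgG 5 (0.0555) and without WT IgG 1 (0.155), with adjusted p from 0.00278 to 0.155 over all alternatives. When WT IgG 1 was left out it was -2.16, and under anti-PD1 it was -1.06 (adjusted p 0.455). Its interaction was 2.66 (adjusted p 0.336).

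Col9a3, a chain of type IX collagen of cartilage, was at 6.39, 6.18 and 9.34 CPM in WT IgG, 4.92, 5.16 and 7.02 CPM in WT anti-PD1, 0.740, 0.864 and 3.03 CPM in A159V IgG and 2.67, 3.35 and 1.72 CPM in A159V anti-PD1. All 6 WT samples exceeded all 6 A159V samples, with A159V IgG 5 above its group. By edgeR the log2 fold change was -2.25 (SE 0.44, adjusted p 0.00324) under IgG. Without A159V IgG 5 that value was -3.25 (adjusted p 0.000209). Under anti-PD1 it was -1.14 (SE 0.43, adjusted p 0.0731), not called, but it passed without A159V IgG 5, at -1.17 (adjusted p 0.00889), with an interaction of 1.11 (adjusted p 0.334). The exons of Col9a3 share 234 bases, 6.07% of their length, with Tcfl5 on the other strand, and the strand setting of the counting is not stated, so its counts may hold reads of Tcfl5.

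Col22a1, a collagen of tissue junctions, was at 0.492, 0.795 and 0.652 CPM in WT IgG, 0.828, 1.41 and 0.613 CPM in WT anti-PD1, 0.370, 0.576 and 0.319 CPM in A159V IgG and 0.272, 0.319 and 0.389 CPM in A159V anti-PD1. All its levels were low, and WT anti-PD1 2 was the highest. Under anti-PD1 the log2 fold change in edgeR was -1.50 (SE 0.43, adjusted p 0.0248), a call lost without A159V anti-PD1 1 (0.0853), without A159V anti-PD1 2 (0.0732), without A159V anti-PD1 3 (0.0620), without WT anti-PD1 1 (0.0501) and without WT anti-PD1 2 (0.118), with adjusted p from 0.0147 to 0.118 over all alternatives. Under IgG it was -0.59 (adjusted p 0.309), with an interaction of -0.91 (adjusted p 0.415). Col9a2 and Col20a1 stayed between 0.218 and 3.02 CPM and were called in neither comparison, with log2 fold changes from -1.16 to -0.96.

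The remaining classes held few tested genes. Col8a1, a short-chain collagen of vessel walls and the eye, was at 12, 7.95 and 18 CPM in WT IgG, 12.3, 13.2 and 7.52 CPM in WT anti-PD1, 8.67, 4.37 and 4.20 CPM in A159V IgG and 7.08, 5.58 and 5.23 CPM in A159V anti-PD1. A159V IgG 1 overlapped the WT IgG range, and WT IgG 4 was the highest sample. The edgeR log2 fold change was -1.14 (SE 0.34, adjusted p 0.0251) under IgG, a call lost with only the samples compared (0.0688), with the replicate number as a block (0.0663), without A159V IgG 2 (0.0970) and without WT IgG 4 (0.0903), with adjusted p from 0.00322 to 0.0970 over all alternatives. The anti-PD1 value was -0.88 (adjusted p 0.0814), with an interaction of 0.26 (adjusted p 0.782).

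The multiplexins are basement membrane collagens whose ends can be released as fragments that act on vessels. Col18a1 was at 51.4, 82.8 and 107 CPM in WT IgG, 115, 86.5 and 155 CPM in WT anti-PD1, 69.1, 88.7 and 83.1 CPM in A159V IgG and 57, 65 and 66.4 CPM in A159V anti-PD1. The IgG groups overlapped, and the anti-PD1 groups did not. By edgeR the log2 fold change was -0.92 (SE 0.25, adjusted p 0.0194) under anti-PD1, a call lost without A159V anti-PD1 1 (0.0718), without A159V anti-PD1 2 (0.0536), without A159V anti-PD1 3 (0.0585) and without WT anti-PD1 3 (0.111), with adjusted p from 0.00120 to 0.111 over all alternatives. Under IgG it was near 0 (adjusted p 0.991), and the interaction was -0.92 (adjusted p 0.236).

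Col15a1, the other multiplexin, was at 4.81, 0.489 and 1.36 CPM in WT IgG, 0.880, 3.02 and 2.51 CPM in WT anti-PD1, 0.529, 0.480 and 0.372 CPM in A159V IgG and 0.763, 1.01 and 1.06 CPM in A159V anti-PD1. WT IgG 1 was the highest sample, and WT IgG 2 overlapped A159V IgG. Under IgG the log2 fold change in edgeR was -2.26 (SE 0.70, adjusted p 0.0300), a call lost with the replicate number as a block (0.0638), with voom (0.130), without A159V IgG 1 (0.0713), without A159V IgG 2 (0.0807), without A159V IgG 5 (0.0592) and without WT IgG 1 (0.194), with adjusted p from 0.00444 to 0.194 over all alternatives. When WT IgG 1 was left out it was -1.08, and under anti-PD1 it was -1.16 (adjusted p 0.222). Col7a1, the anchoring-fibril collagen of skin, ranged from 94.8 to 369 CPM, and Col17a1, a transmembrane collagen of epithelial anchoring, from 0.673 to 1.75 CPM. Neither was called in either genotype comparison, though Col7a1 passed under IgG without WT IgG 1, at -1.06 (adjusted p 0.0418), and without A159V IgG 5, at -1.30 (adjusted p 0.00730).

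The calls on Col5a3, Col3a1, Col6a1, Col6a2, Col16a1 and Col27a1 held in both genotype comparisons under all 20 alternatives of scaling, filter, tool and samples. The same held for Col1a1, Col5a2, Col9a3 and Col11a1 under IgG and for Col4a5 and Col4a6 under anti-PD1.

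Samples within a group did not rank the same way for all collagens. Col1a1, Col1a2, Col5a2, Col14a1 and Col15a1 were highest in WT IgG 1, while Col6a1, Col6a2, Col6a3, Col27a1 and Col4a5 were highest in WT IgG 4 or WT anti-PD1 3. Of the 8 fibroblast markers, Pi16, Dpt, Thy1 and Lum had their highest WT IgG value in WT IgG 1, Dcn, Pdgfra and Pdgfrb in WT IgG 4, and Cd34 in WT IgG 2. These genes were set side by side after their values were seen, and no correlation was computed.

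Some marker lists differed with genotype as well. Of 8 fibroblast markers, 5 were called lower and 0 higher under IgG in edgeR (7 at an unadjusted p under 0.05, 6 of them lower and Pdgfra higher), and 5 lower and 0 higher under anti-PD1 (6 at an unadjusted p under 0.05). Without the most abundant gene of each sample, the list summed to 238 to 540 CPM in WT and 135 to 229 CPM in A159V samples. Thy1 passed the filter through WT samples alone. Pdgfra, the 1 marker of the 8 with a positive value under IgG, was at 26.3, 42.5 and 69 CPM in WT IgG, 69.4, 61.7 and 96.6 CPM in WT anti-PD1, 63.6, 85 and 62.9 CPM in A159V IgG and 61, 58.4 and 60.6 CPM in A159V anti-PD1. Its log2 fold change was 0.62 (SE 0.28, adjusted p 0.113) under IgG and -0.34 (SE 0.27, adjusted p 0.404) under anti-PD1, and neither passed. The part of fibroblasts in the collagen differences was not tested.

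The 6 pericyte and smooth muscle markers (Rgs5, Cspg4, Myh11, Des, Notch3, Kcnj8) summed to 11 to 27.5 CPM in WT and 4.20 to 7.06 CPM in A159V samples, with Des as the most abundant gene in 9 samples and Cspg4 in the other 3, and Kcnj8 was at 0 in 10 of 12. Of 4 tested, 2 were lower in A159V under IgG and 3 under anti-PD1, with Rgs5, which passed the filter through WT samples alone, in both. The 6 endothelial markers (Pecam1, Cdh5, Kdr, Tek, Emcn, Vwf) summed to 5.16 to 15.1 CPM, mostly Cdh5, and Emcn was at or under the floor in every sample. Of these, 2 were tested and both were called lower in A159V under anti-PD1, Cdh5 (-0.74) and Pecam1 (-1.08), while under IgG their values of -0.14 and -0.81 did not pass. These calls were lost for Cdh5 without A159V anti-PD1 1, A159V anti-PD1 2, A159V anti-PD1 3, WT anti-PD1 1, WT anti-PD1 2 or WT anti-PD1 3 (adjusted p up to 0.122) and for Pecam1 without A159V anti-PD1 1, A159V anti-PD1 2, A159V anti-PD1 3, A159V IgG 1, A159V IgG 2, WT anti-PD1 2 or WT anti-PD1 3, or with no filter (adjusted p up to 0.164). Their part in the collagen differences was not tested.

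The 8 leukocyte markers (Ptprc, Cd3e, Cd8a, Itgam, Adgre1, Csf1r, Lyz2, Tyrobp) summed to 16.7 to 27.5 CPM in WT anti-PD1, with Ptprc highest, and to 4.16 to 8.48 CPM in the other groups, with Lyz2 highest. In A159V samples Cd3e and Cd8a were at or under the floor. Of 5 tested, Ptprc and Tyrobp were called lower in A159V under IgG, and Ptprc, Tyrobp, Cd8a and Itgam under anti-PD1. In WT anti-PD1 against WT IgG, Cd8a (4.53) and Itgam (2.44) were called higher. These 4 genes passed the filter through WT samples alone, so their differences between the genotypes are partly fixed by it. Cd8a and Itgam passed in WT anti-PD1 samples only, so their difference between the WT groups is partly fixed as well. Calls under IgG were lost for Ptprc without A159V IgG 1 or WT IgG 4, or with voom (adjusted p up to 0.0624) and Tyrobp without any 1 sample but A159V IgG 5 and WT IgG 2, or with voom or the replicate number as a block (adjusted p up to 0.139), the call under anti-PD1 for Tyrobp without A159V anti-PD1 1, A159V anti-PD1 2, A159V anti-PD1 3 or WT anti-PD1 3 (adjusted p up to 0.0788), and those between the WT groups for Cd8a without A159V anti-PD1 3, WT anti-PD1 1, WT anti-PD1 2, WT anti-PD1 3, WT IgG 1 or WT IgG 2, or with only the groups compared (adjusted p up to 0.113) and Itgam without any 1 sample but A159V IgG 1, A159V IgG 5 and WT IgG 4, or with only the groups compared (adjusted p up to 0.145), while DESeq2 gave Itgam no adjusted p.

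The 4 keratinocyte markers (Krt5, Krt14, Krt1, Krt10) summed to 1.12 to 2.63 CPM, with Krt10 highest in 11 samples and level with Krt14 in WT anti-PD1 2, and Krt5 was at 0 in 10 of 12 samples. Of the 4 skeletal muscle markers, 4 were lower in A159V under anti-PD1, and 3 of them, Myh4, Ckm and Tnnt3, passed the filter through WT samples alone. These calls were lost for Acta1 without A159V anti-PD1 1, A159V anti-PD1 2, A159V anti-PD1 3, WT anti-PD1 2 or WT anti-PD1 3, or with voom (adjusted p up to 0.258), Myh4 without A159V anti-PD1 2, A159V anti-PD1 3 or WT anti-PD1 3, or with DESeq2, voom or the replicate number as a block (adjusted p up to 0.470), Ckm without A159V anti-PD1 2, A159V anti-PD1 3 or WT anti-PD1 3, or with voom (adjusted p up to 0.258) and Tnnt3 with voom (adjusted p 0.172). Of the epithelial markers, Cdh1 alone was tested, and was lower in A159V under anti-PD1 (-1.61), having passed the filter through WT samples alone. That call was lost for Cdh1 without A159V anti-PD1 1, A159V anti-PD1 3, WT anti-PD1 1 or WT anti-PD1 3 (adjusted p up to 0.0923). The part of these cells in the collagen differences was not tested.

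The comparison of WT anti-PD1 with WT IgG asks how the treatment changed collagen mRNA in WT tumors. It shares the WT IgG samples with the genotype comparison under IgG and the WT anti-PD1 samples with the one under anti-PD1, so the values stand side by side only. In edgeR 1 of 30 collagen genes was called, against 0.628% of all genes tested, and 7 (23.3%) had an unadjusted p under 0.05, against 27.5% of all genes. DESeq2 called 6 and voom 2. The median log2 fold change was 0.27 over the 30 genes and 0.01 over all genes tested.

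The gene called was Col11a1, at 4.59, 7.16 and 7.58 CPM in WT IgG and 14.1, 12.7 and 19.2 CPM in WT anti-PD1, with a log2 fold change of 1.25 (SE 0.23, adjusted p 0.0369) in edgeR. The 3 treated samples lay above the 3 controls. The call was lost with at least 10 counts asked of every sample (0.0561), with only the samples compared (0.119), without A159V IgG 1 (0.0515), without A159V anti-PD1 1 (0.0586), without A159V anti-PD1 3 (0.0649), without WT IgG 1 (0.0980), without WT IgG 2 (0.0864), without WT anti-PD1 1 (0.0945), without WT anti-PD1 2 (0.103) and without WT anti-PD1 3 (0.151), and its adjusted p ranged from 0.000166 to 0.151 over all alternatives. Without WT IgG 4 the collagen calls of this comparison were 9, and without A159V IgG 5 they were 2. Over all genes, leaving out any of the 12 samples moved the 90 calls by over 1.5 times, to between 1 without WT IgG 1 and 3458 without WT IgG 4.

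By adjusted p, the 4 type IV genes and Col12a1 came next. Col4a6 had a log2 fold change of 1.29 (SE 0.30, adjusted p 0.0588) in edgeR, with no overlap between the WT groups. Col4a1 was at 0.92 (SE 0.25, adjusted p 0.0768) and Col4a2 at 0.80 (SE 0.23, adjusted p 0.0799), also with no overlap. Col4a5 was at 0.85 (SE 0.29, adjusted p 0.102), with WT IgG 4 inside the treated range. All 4 values were positive and none passed. Col12a1 was at 1.22 (SE 0.38, adjusted p 0.0883), and its samples did not overlap either.

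The comparison of A159V anti-PD1 with A159V IgG asks the same in A159V tumors. It uses the A159V samples of both genotype comparisons. In edgeR 0 of 30 collagen genes were called, against 0.0% of all genes tested, with 2 collagen genes at an unadjusted p under 0.05 (Col5a2 and Col1a1, named after their values were seen). DESeq2 called 0 collagen genes and voom 0, and over all genes DESeq2 called 2 and voom 0, with 521 at an unadjusted p under 0.05 in edgeR. Col5a2 was at 0.793, 1.83 and 0.638 CPM in A159V IgG and 3.81, 1.38 and 4.34 CPM in A159V anti-PD1. Its log2 value was 1.53 (SE 0.68, adjusted p 1.0). Col1a1 had one of 1.03 (SE 0.46, adjusted p 1.0), with A159V anti-PD1 2 inside the control range. The 4 type IV genes had log2 fold changes from -0.47 to -0.27.

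The interaction tests whether the treatment effect differs between the genotypes. No collagen gene of 30 passed in edgeR (0 calls, against 0.00697% of all genes tested), and 7 (23.3%) had an unadjusted p under 0.05, against 17.6% of all genes, while DESeq2 called 4 and voom 0. The 4 type IV genes had values of -1.38 for Col4a1, -1.21 for Col4a2, -1.15 for Col4a5 and -1.56 for Col4a6, with adjusted p from 0.171 to 0.224. Without WT IgG 4, 7 collagen genes and 1182 genes in all were called. Why the count depends on that sample was not tested.

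Genes that act on collagen were taken from 6 lists, and the counts below stand beside 28.0% of all genes called under IgG and 21.4% under anti-PD1. Of 18 genes tested for folding and modification of the chains, 6 were higher and 3 lower in A159V under IgG. The prolyl hydroxylase subunit P4ha2 (0.78, log2), P3h1 (0.63), the lysyl hydroxylases Plod1 (0.70) and Plod3 (0.61), the galactosyltransferase Colgalt1 (0.79) and the transport coat gene Sec23a (0.54) were higher. P4ha3 (-2.0), P3h2 (-1.25) and P3h3 (-0.69) were lower. Under anti-PD1 2 were higher, Plod3 (0.54) and P4ha2 (0.42), and 3 lower, P3h2 (-2.80), P4ha3 (-1.84) and P3h3 (-0.66). These calls were lost under IgG for Sec23a without any 1 sample but A159V IgG 5 and WT IgG 4, or with RLE size factors, upper-quartile normalization, no filter, at least 10 counts asked of every sample, DESeq2 or only the groups compared (adjusted p up to 0.209), P3h3 without A159V IgG 1 or A159V IgG 2 (adjusted p up to 0.0567), P3h2 with only the groups compared or the replicate number as a block (adjusted p up to 0.125), Plod1 with only the groups compared (adjusted p 0.0523), Plod3 with only the groups compared (adjusted p 0.0836) and P3h1 with only the groups compared (adjusted p 0.0543), and under anti-PD1 for P4ha2 without any 1 sample but A159V IgG 2, A159V IgG 5, WT anti-PD1 2 and WT IgG 4, or with RLE size factors, upper-quartile normalization, no filter or at least 10 counts asked of every sample (adjusted p up to 0.154), P3h3 without A159V anti-PD1 1, A159V anti-PD1 3, WT anti-PD1 2 or WT anti-PD1 3 (adjusted p up to 0.104) and P4ha3 without WT anti-PD1 3 (adjusted p 0.0510). With 1 sample left out, the count of genes called on this list under anti-PD1 ran from 2 to 7. The collagen chaperone Serpinh1 stayed between 376 and 540 CPM and was not called.

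Of 11 genes tested for processing and cross-linking, 3 were higher and 4 lower in A159V under IgG. Loxl4 (0.90), Bmp1 (0.69) and Pcolce2 (0.69) were higher, while the lysyl oxidase genes Lox (-3.23), Loxl1 (-2.78), Loxl2 (-0.86) and Loxl3 (-1.10) were lower (log2 fold changes). Lox was at 9.40, 0.979 and 4.62 CPM in WT IgG, 1.71, 4.63 and 3.34 CPM in WT anti-PD1, 0.740, 0.624 and 0.213 CPM in A159V IgG and 1.47, 1.06 and 4.23 CPM in A159V anti-PD1. Its highest sample was WT IgG 1, as for Col1a1, and without that sample it was -2.48 (adjusted p 0.0355) under IgG. Under anti-PD1 1 was higher, Pcolce2 (1.11), and 2 lower, Tgm2 (-0.77) and Loxl3 (-0.67). Calls were lost under IgG for Loxl1 without A159V IgG 1, A159V IgG 2, A159V IgG 5 or WT IgG 1, or with voom, only the groups compared or the replicate number as a block (adjusted p up to 0.253), whose value was -1.27 (adjusted p 0.253) without WT IgG 1, and for Pcolce2 without WT IgG 2, or with only the groups compared (adjusted p up to 0.117), Bmp1 with only the groups compared (adjusted p 0.0666) and Loxl2 with only the groups compared (adjusted p 0.0574), and under anti-PD1 for Loxl3 without A159V anti-PD1 1 or WT anti-PD1 3 (adjusted p up to 0.0697).

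Among 6 tested collagen receptors, Mrc2, which takes up collagen fragments, had log2 fold changes of -1.68 (adjusted p 0.000841) under IgG and -2.37 (adjusted p 0.000111) under anti-PD1 in edgeR. The integrin gene Itga10 (-1.32) was lower and the receptor kinase gene Ddr1 (0.81) higher under IgG. Under anti-PD1 Itga10 (-0.99) and Itga1 (-1.19) were lower. Of 6 tested genes for collagen breakdown, 4 were lower under IgG: Mmp2 (-2.02), Mmp9 (-2.51), Fap (-1.41) and Ctsk (-3.02). Under anti-PD1 3 were lower, Mmp2 (-1.54), Mmp9 (-3.21) and Mmp14 (-0.52). Mmp9 was at 35.1, 22 and 82.8 CPM in WT IgG, 40.1, 29.6 and 95.9 CPM in WT anti-PD1, 8.94, 8.69 and 6.96 CPM in A159V IgG and 4.63, 7.23 and 6.06 CPM in A159V anti-PD1. WT anti-PD1 3 and WT IgG 4 were the 2 highest samples, as for Col6a1, and all 6 A159V samples lay below all 6 WT samples. Ctsk passed the filter through WT samples alone, and its value was -1.35 (adjusted p 0.108) without WT IgG 1. Calls were lost under IgG for Ctsk without A159V IgG 1, A159V IgG 2 or WT IgG 1, or with voom or only the groups compared (adjusted p up to 0.108) and Ddr1 with only the groups compared (adjusted p 0.0561), and under anti-PD1 for Mmp14 without A159V anti-PD1 1, A159V anti-PD1 2, A159V anti-PD1 3 or WT anti-PD1 3 (adjusted p up to 0.116), Itga10 without A159V anti-PD1 1, A159V anti-PD1 3, A159V IgG 1, WT anti-PD1 2, WT anti-PD1 3 or WT IgG 2 (adjusted p up to 0.149) and Itga1 without A159V anti-PD1 2 (adjusted p 0.0511).

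Of 8 tested genes of the matrix that binds fibrils, 5 were lower and 1 higher under IgG. The proteoglycan genes Dcn (-1.35), Lum (-2.44) and Bgn (-3.46), with Sparc (-1.04) and Postn (-3.20), were lower, and fibronectin, Fn1 (1.35), was higher. Under anti-PD1 Lum (-3.49), Sparc (-1.18), Dcn (-1.86), Tnxb (-1.44) and Ogn (-2.74) were lower. Fn1 was at 529, 1253 and 2193 CPM in WT IgG, 2662, 2638 and 3600 CPM in WT anti-PD1, 2246, 3525 and 4368 CPM in A159V IgG and 1634, 2261 and 1990 CPM in A159V anti-PD1. WT IgG 1 was the lowest sample, and the groups did not overlap under either treatment, with A159V above WT under IgG and below it under anti-PD1. The value under anti-PD1 was -0.60 (SE 0.39, adjusted p 0.292), not called, and the interaction was -1.95 (adjusted p 0.180). Without WT IgG 1 the IgG values were 0.92 (adjusted p 0.0454) for Fn1, -2.51 (adjusted p 0.00985) for Bgn and -2.11 (adjusted p 0.0418) for Postn. Calls were lost under IgG for Fn1 without A159V IgG 2, A159V IgG 5 or WT IgG 2, or with only the groups compared (adjusted p up to 0.109) and under anti-PD1 for Ogn without A159V anti-PD1 1, A159V anti-PD1 3 or WT anti-PD1 3 (adjusted p up to 0.0640).

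The TGF-beta axis is a known inducer of fibrillar collagen genes. Among the genes of its list reported here, Tgfb1 (0.52), Tgfbr2 (0.51) and Smad2 (0.47) were higher under IgG, and Smad7 (-0.63) and Tgfb3 (-0.79) lower. Under anti-PD1 the lower genes were Smad7 (-1.53), Tgfb3 (-1.33), Tgfb2 (-0.81), Smad3 (-0.77) and Skil (-0.67). Calls were lost under IgG for Tgfbr2 without A159V IgG 1, A159V IgG 2, WT IgG 1 or WT IgG 2, or with upper-quartile normalization, no filter, at least 10 counts asked of every sample or only the groups compared (adjusted p up to 0.140), Smad2 without A159V IgG 1, A159V IgG 2, WT IgG 1 or WT IgG 2, or with upper-quartile normalization, no filter, at least 10 counts asked of every sample or only the groups compared (adjusted p up to 0.180), Smad7 without A159V IgG 1, A159V IgG 2 or WT IgG 4, or with only the groups compared (adjusted p up to 0.0961), Tgfb3 without A159V IgG 1, A159V IgG 2 or WT IgG 4, or with only the groups compared (adjusted p up to 0.106) and Tgfb1 with only the groups compared (adjusted p 0.111), and under anti-PD1 for Tgfb2 without A159V anti-PD1 1, A159V anti-PD1 2, A159V anti-PD1 3, A159V IgG 1, WT anti-PD1 1 or WT anti-PD1 3 (adjusted p up to 0.139), Smad3 without A159V anti-PD1 1, A159V anti-PD1 3 or WT anti-PD1 3 (adjusted p up to 0.0801) and Skil without A159V anti-PD1 2, A159V anti-PD1 3, WT anti-PD1 1 or WT anti-PD1 3 (adjusted p up to 0.112). Totals over the list are not reported.

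Several collagen genes are neighbours in the genome, a feature the naming rule did not use. Col4a1 and Col4a2 lie head to head on chromosome 8 with 22 bases of shared exon, Col4a6 and Col4a5 head to head on chromosome X with 1308 bases between them, and Col3a1 and Col5a2 tail to tail on chromosome 1 with 24614 bases between them. Members of each of these pairs had fold changes of the same sign in both genotype comparisons, except Col4a5 and Col4a6 under IgG, where Col4a6 was near 0 at 0.17 (SE 0.30) and took the sign of Col4a5 without WT IgG 1, at -0.19 (adjusted p 0.627). Of the 30 collagen genes tested, 22 had a negative value under IgG and 28 under anti-PD1, so a shared sign says little about position. Col5a3 lies apart from other collagen genes. Of 18 other tested genes within 250 kilobases of it, 4 were higher and 2 lower under IgG, and 3 higher and 0 lower under anti-PD1, beside 28.0 and 21.4% of all genes called, with Rdh8 and Icam1 higher in both. Rdh8, whose start is the nearest to that of Col5a3, was between 0.201 and 0.668 CPM in WT and 0.720 and 1.42 CPM in A159V samples, with a log2 fold change of 2.15 under IgG and 1.25 under anti-PD1. It passed the filter through A159V samples alone, and the 2 lower neighbours under IgG, Fbxl12os and A230050P20Rik, through WT samples alone, so these differences are partly fixed by the filter. The neighbours were chosen for their position after the values of Col5a3 were seen.

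Promoter windows of RefSeq on GRCm38.p6, the patched form of mm10, cover 250 bases before to 50 after a start and were found for 35 of the 44 genes, as 38 windows. Col1a1, Col2a1, Col4a3, Col5a2, Col9a3, Col12a1, Col14a1, Col22a1 and Col26a1 were not matched. Both strands were searched for 5 motifs. TATAAA was in 13.2% of the collagen windows and 13.6% of all 32851 windows, CCAAT in 34.2 and 37.4%, GGGCGG in 60.5 and 35.7%, CAGAC in 52.6 and 49.6%, and the AP-1 site, TGA and TCA with any base between, in 2.63 and 7.81%. A match is a description of letters and no sign that a factor binds.

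The 250 bases before the start are shown for 3 genes that differed between the genotypes, Col5a3 and Col11a1 as higher and Col3a1 as lower under IgG, written 5′ to 3′ on the strand of the gene. Capitals mark matches to the motifs on either strand. Col5a3 (chr9:20815068-20815317, minus strand) holds CCAAT and GGGCGG, and 62.8% of its bases are G or C. Col11a1 (chr3:114030290-114030539, plus strand) holds matches to CCAAT, to GGGCGG and also to CAGAC, at 62.4% G or C. Col3a1 (chr1:45311288-45311537, plus strand) holds TATAAA and CAGAC, at 35.2% G or C.
Col5a3: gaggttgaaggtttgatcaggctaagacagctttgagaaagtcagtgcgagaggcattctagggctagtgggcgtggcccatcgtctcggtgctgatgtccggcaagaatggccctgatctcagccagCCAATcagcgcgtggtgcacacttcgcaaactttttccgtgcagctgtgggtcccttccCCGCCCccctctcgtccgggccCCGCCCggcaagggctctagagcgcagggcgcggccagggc
Col11a1: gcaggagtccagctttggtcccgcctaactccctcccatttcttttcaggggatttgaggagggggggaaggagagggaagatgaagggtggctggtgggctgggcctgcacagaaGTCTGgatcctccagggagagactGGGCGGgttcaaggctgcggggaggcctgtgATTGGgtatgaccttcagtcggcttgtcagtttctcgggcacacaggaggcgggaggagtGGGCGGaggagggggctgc
Col3a1: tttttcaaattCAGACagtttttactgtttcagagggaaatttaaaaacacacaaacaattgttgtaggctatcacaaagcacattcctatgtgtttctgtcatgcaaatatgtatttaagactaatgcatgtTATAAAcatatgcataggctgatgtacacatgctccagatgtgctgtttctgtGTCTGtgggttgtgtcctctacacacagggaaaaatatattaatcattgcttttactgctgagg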

How the data were processed

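Poly-A RNA of tumor cells from 12 mice was sequenced by the authors with paired reads of 100 bp, aligned to mm10 with STAR, converted with Samtools and counted per gene with summarizeOverlaps. The authors deposited raw counts. The counting mode, strand setting and annotation are not stated. The members and lists were chosen with earlier results of these data known. Counts were fitted with edgeR 4.0.16 in R 4.3.3 (TMM, filterByExpr by group, quasi-likelihood, 4 groups, 8 residual degrees of freedom), with Benjamini-Hochberg adjustment over 14340 genes in 5 contrasts. Alternatives were RLE size factors, upper-quartile normalization, 2 other filters, DESeq2 1.42.0, voom in limma 3.58.1, only the groups compared, other thresholds, the replicate number as a block, and each of 12 samples left out.

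Named with values are all fibril-forming, type IV and type VI genes, all collagen genes called in any contrast, and up to 6 called genes per direction in each list. Figures used matplotlib 3.10.9 and tables pandas 2.3.3 with numpy 2.4.6, in Python 3.11.15. Exon lengths, over all merged exons of a gene, and positions came from GENCODE M21. Log2 CPM used a prior count of 2. Other data of the study were not used here.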

Additional observations from a re-analysis of the deposited data

Results flagged for a closer look

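Col4a1 and Col4a2 differed between the genotypes in how their samples lay after anti-PD1. In WT tumors every anti-PD1 sample was above every IgG sample, and in A159V tumors every anti-PD1 sample was below every IgG sample. The difference between the responses was tested as an interaction in edgeR. It was -1.38 for Col4a1 (adjusted p 0.171) and -1.21 for Col4a2 (adjusted p 0.175), and neither passed. Of 14340 genes tested, 366 (2.55%) showed such opposite, separate positions, as did 2 of the 30 collagen genes (6.67%). These 2 genes lie head to head and share exon bases, so they are not independent cases and the shares are not compared further. Both genes were low in WT IgG 1, at 88.4 and 59.2 CPM. Without that sample the interactions were -1.10 (adjusted p 0.115) and -0.95 (adjusted p 0.155). Whether collagen genes passed the interaction depended on the tool and the samples, and 0 to 7 of the 30 did with 1 sample left out. The values of Col4a1 and Col4a2 in the other alternatives are not given here.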

How the results depend on the processing

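No collagen gene that was called changed direction under any alternative. Of the results for called genes under 18 to 20 alternatives each, 288 kept their side of the threshold and 29 lost it in the genotype comparison under IgG, 238 and 21 in that under anti-PD1, and 10 and 10 for Col11a1 in WT anti-PD1 against WT IgG.

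The collagen calls of both genotype comparisons (16 and 13) stayed within 1.5 times in every alternative, 12 to 17 and 9 to 17 when 1 sample was left out. For WT anti-PD1 against WT IgG, where 1 was called, the count was 5 with no filter, 0 with at least 10 counts in every sample, 6 with DESeq2, 2 with voom, 0 with only the groups compared, 10 with the replicate block, and 0 to 9 when 1 sample was left out. For the interaction (0) it was 1 with no filter, 4 with DESeq2, 10 with the replicate block and 0 to 7 when 1 sample was left out. For A159V anti-PD1 against A159V IgG it was 0 throughout, 0 to 0 when 1 sample was left out. Number 4 belongs to WT IgG 4 alone and number 5 to A159V IgG 5 alone, so the replicate block in effect leaves both samples out. Why the counts moved was not tested.

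The labels do not say whether replicate numbers pair samples across groups. In 13 pairs with the same number, correlations of deviations from group means ran from -0.178 to 0.205. Of the samples, 3 of 12 were closest to their own number, which WT IgG 4 and A159V IgG 5 could not be, as no other sample shares theirs. With group means of 3 samples, this check cannot decide whether the samples are paired.

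Calls over all genes under IgG (4010) were 1399 with only the groups compared, 1649 at an absolute log2 fold change above 1, and 2578 to 4717 with 1 sample left out. Under anti-PD1 (3075) they were 2014 with at least 10 counts, 5320 with only the groups compared, 5018 with the replicate block, 1326 above 1, and 1519 to 4134. For WT anti-PD1 against WT IgG (90) they were 771 with no filter, 25 with at least 10 counts, 1478 with DESeq2, 188 with voom, 0 with only the groups compared, 4650 with the replicate block, and 1 to 3458. For the interaction (1) they were 0 with upper-quartile normalization, 37 with no filter, 295 with DESeq2, 2760 with the replicate block, and 0 to 1182.

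Counts of genes called on the related lists moved beyond 1.5 times solely with only the groups compared, with the higher fold limit or with 1 sample left out. With 1 sample left out, folding genes called under anti-PD1 ran from 2 to 7, against 5. With only the groups compared, folding genes went from 9 to 4 under IgG and from 5 to 8 under anti-PD1, and processing genes from 7 to 3 under IgG. The calls under IgG on Tgfb1, Tgfbr2, Smad2, Smad7 and Tgfb3 of the TGF-beta list, whose totals are not reported, were lost there too. The collagen share of counts moved by less than the spread between mice when taken over the TMM-scaled library size. Col14a1, Col15a1 and Col22a1 dropped out where at least 10 counts were asked of every sample, and Col15a1 in 1 more alternative, so these give no value there.

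Where a group was left with 2 samples, the fit pooled the spread over all groups. Depth limits what the counts show for the 14 genes not kept and for tested genes with few counts, such as Col9a2 with 101 and Col22a1 with 126 over all samples. With 3 mice per group and 1 clone, results do not extend to other clones. The strand and mode of counting bear on genes with shared exons, which among tested collagens include Col9a3 and, with 22 bases, Col4a1 and Col4a2.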
